A study of Mus musculus with 2 samples.

Results

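The values here are those of 10 genes whose products write or erase methyl marks on histones and DNA: Kdm6a, Kdm6b, Ezh1, Ezh2, Setdb2, Kmt2a, Dnmt1, Dnmt3a, Tet2 and Tet3. They were found by gene symbol and gene identifier, and all 10 were among the 55536 named genes of the tables. The study sequenced ribosome-depleted total RNA from the nuclear fraction, called nucleoplasmic in the labels, of macrophages grown from C57BL/6J mouse bone marrow. The 2 libraries form a single group: the cells were given Lipid A, the TLR4-activating part of lipopolysaccharide, at 100 ng/ml for 12 h, were kept 12 h after its removal, and were given 100 ng/ml again for 40 min. The RNA input was 1 µg for library 1 and 500 ng for library 2, so RNA input and replicate number cannot be told apart. No sex or age was recorded, both libraries carry the same donor entry, and the spread between them may therefore be smaller than that between animals. Without unexposed or singly exposed cells, every value is a level in restimulated macrophages and none is a response.

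Methylation of histone H3 at lysine 27 (H3K27) by Polycomb repressive complex 2, PRC2, marks repressed genes, whereas methylation at lysine 4 (H3K4) marks promoters and enhancers in use. Methylation at lysine 9 (H3K9) is a mark of silent chromatin. DNA methyltransferases place methyl groups on cytosines of CpG dinucleotides, and TET dioxygenases oxidise them, which begins their removal. In macrophages these enzymes are studied for their part in which inflammatory genes answer a second exposure to lipopolysaccharide, and Kdm6b is widely known as a demethylase gene that such stimuli induce.

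Named genes had 19797829 expected counts in library 1 and 17213606 in library 2, of which the 10 genes took 44963 and 33846. Mitochondrial genes took 2.63% and 6.60% of the counts, so the fraction was not free of RNA from outside the nucleus. All 8 macrophage markers were detected, with a summed level of 3116 TPM (transcript abundance scaled by length and library total) in library 1 and 2480 TPM in library 2. None of 4 B cell, 5 neutrophil and 4 fibroblast markers was detected, nor was any T cell marker but Cd4, while 2 of 4 dendritic cell markers were detected, none of the 4 with a mean above 0.315 TPM. In bulk RNA of this kind, fewer cells that express a gene and less RNA per cell cannot be told apart.

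RefSeq promoters of the GRCm38.p6 build were at hand for 9 of the 10 genes, with 13 starts in all. Kdm6b was the gene without one. The 250 bases before 5 of these starts are printed because the level of Tet2 and the choice of start in Dnmt3a and Dnmt1 carry the results below. Each runs 5′ to 3′ on the strand of the gene, and capitals mark CpG dinucleotides, the sites these DNA enzymes act on.
Tet2, chr3:133544391-133544640, minus strand: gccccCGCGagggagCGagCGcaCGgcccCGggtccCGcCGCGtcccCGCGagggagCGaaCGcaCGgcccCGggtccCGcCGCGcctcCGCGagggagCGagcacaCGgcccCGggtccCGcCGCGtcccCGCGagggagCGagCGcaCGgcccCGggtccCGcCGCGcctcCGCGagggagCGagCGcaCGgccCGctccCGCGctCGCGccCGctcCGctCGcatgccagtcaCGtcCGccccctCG
Dnmt3a upstream start, chr12:3806730-3806979, plus strand: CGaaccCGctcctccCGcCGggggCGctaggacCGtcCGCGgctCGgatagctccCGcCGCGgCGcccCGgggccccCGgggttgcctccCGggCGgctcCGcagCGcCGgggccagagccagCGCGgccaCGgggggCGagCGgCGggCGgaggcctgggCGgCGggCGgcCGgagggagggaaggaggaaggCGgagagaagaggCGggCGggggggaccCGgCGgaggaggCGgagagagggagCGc
Dnmt3a internal start, chr12:3891494-3891743, plus strand: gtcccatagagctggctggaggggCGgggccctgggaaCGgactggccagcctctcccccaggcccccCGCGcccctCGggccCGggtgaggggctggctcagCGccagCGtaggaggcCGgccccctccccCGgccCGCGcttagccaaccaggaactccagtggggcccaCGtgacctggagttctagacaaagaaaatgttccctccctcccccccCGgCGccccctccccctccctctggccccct
Dnmt1 middle start, chr9:20952980-20953229, minus strand: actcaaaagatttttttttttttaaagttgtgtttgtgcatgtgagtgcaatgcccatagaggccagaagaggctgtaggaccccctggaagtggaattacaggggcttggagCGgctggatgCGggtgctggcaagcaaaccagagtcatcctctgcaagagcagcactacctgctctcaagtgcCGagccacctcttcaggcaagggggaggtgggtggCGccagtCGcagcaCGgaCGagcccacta
Dnmt1 far start, chr9:20959889-20960138, minus strand: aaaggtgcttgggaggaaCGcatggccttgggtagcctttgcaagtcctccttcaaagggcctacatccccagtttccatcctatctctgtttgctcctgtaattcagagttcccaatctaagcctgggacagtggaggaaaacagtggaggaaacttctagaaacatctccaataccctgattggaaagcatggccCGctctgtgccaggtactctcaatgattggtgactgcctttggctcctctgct

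The Tet2 window holds 51 CpGs, against a median of 6 (quartiles 2 and 16) over the windows of all 32851 promoters. It is also visibly repetitive: moved along itself by 42 bases it matched at 77.9% of positions, where the median promoter reached 34.4% at its best shift between 20 and 100 bases. Only 22 of the 32851 windows, Tet2 included, reached that match. The Dnmt3a window labelled upstream holds 38 CpGs and that at the internal start 15. The first lies before the RefSeq start at 3806980, which is 50 bases from the nearest annotated transcript start, that of Dnmt3a-201. The window before the 3807160 start, where Dnmt3a-218 begins, holds 40 CpGs and is not printed. Dnmt1 has 7 CpGs before the middle start, 2 before the far start and 26 before its near start, whose window is not printed. Among the other genes the count was 29 for Kmt2a, 24 for Setdb2, 23 for Ezh2, 17 for Tet3, 15 for Kdm6a and 14 for Ezh1.

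Motifs were counted on both strands in the 13 windows as a description of their letters. The GC box GGGCGG was in 8 of 13 windows and in 32.7% of all promoters, and CCAAT was in 5 of 13 and in 33.8%. Some genes have several of these windows, and those at the 3806980 and 3807160 starts of Dnmt3a overlap, so the 13 are not independent. The letters TGANTCA, TGACGTCA and TTCCCGC and the κB consensus, which are in 6.75%, 1.55%, 3.82% and 7.25% of all promoters, were in 0 of 13. The promoter of Kdm6b is not among the 13, so these counts say nothing about that gene.

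All 10 genes were detected, that is, had 10 or more expected counts in both libraries, as did 49.9% of 22028 protein-coding genes. Their median level was 38.4 TPM, where the median of detected protein-coding genes was 6.38 TPM. Of the 10, 7 lay above the 75th percentile of detected protein-coding genes, a position that 25% of those genes hold by definition. The plot of levels by library shows the order by RSEM TPM of whole genes, from Tet2 at the top to Ezh2 at the bottom. Tet2 had rank 2 with kallisto, behind Dnmt3a, and rank 5 by complete coding transcripts, while Ezh2 was lowest by all 3 measures.

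**Figure D1:**
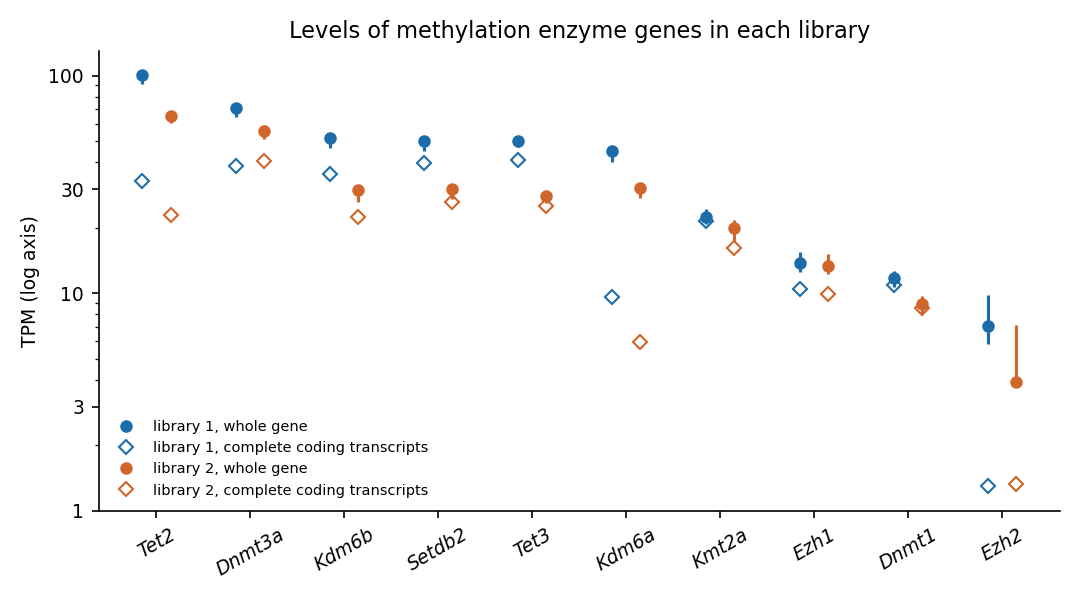
Level of each gene in TPM on a log axis, by library (blue, library 1; orange, library 2). Filled points are whole genes with the deposited interval as a line, and open diamonds are the sum over transcripts with a complete coding sequence; Tet2 is highest by whole gene with RSEM at 100.3 and 64.9 TPM, while its diamonds lie at 32.8 and 23.0 TPM, below those of Dnmt3a.

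The H3K27 demethylase gene Kdm6b (chromosome 11, 69398508 to 69413675, minus strand, mm10) had 51.5 and 29.6 TPM in libraries 1 and 2, a mean of 40.5 ± 15.4 (SD, n = 2) at percentile 89.3. These SDs include a shift of the whole TPM scale between the libraries, given below. Its X-linked relative Kdm6a (chromosome X, 18162575 to 18279936, plus strand), which encodes UTX, had 45.2 and 30.3 TPM, a mean of 37.7 ± 10.5 (SD, n = 2). The 2 genes did not keep an order: the log2 ratio of Kdm6b over Kdm6a was 0.19 in library 1 and -0.03 in library 2. The deposited TPM therefore put an inducible and a widely expressed demethylase gene at levels that these libraries do not separate.

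The transcripts behind those levels differed. For Kdm6b, the 6654-nt transcript Kdm6b-201, which encodes 1641 codons over 23 exons, took 96.3% of the gene's counts in library 1 (Wilson 95% interval 95.7% to 96.8%) and 97.5% in library 2 (96.9% to 97.9%). By TPM its share was only 68.4% and 75.7%, because the 743-nt processed transcript Kdm6b-202 turned 3.72% and 2.54% of counts into 31.6% and 24.3% of TPM. Such intervals cover counting error only, not the uncertainty of dividing reads among transcripts. Without molecular identifiers, several reads may also stem from 1 molecule.

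For Kdm6a the largest transcript by TPM was not a coding one, whereas by counts it was. Kdm6a-203, 4193 nt and annotated as a retained intron, took 24.3% of the gene's TPM in library 1 and 21.2% in library 2. The full-length coding transcript Kdm6a-201, with 1401 codons, took 18.5% and 18.8%, and the incomplete Kdm6a-207 took 10.2% and 15.6%. By counts, which are not divided by length, Kdm6a-201 held 36.9% and 36.1% and Kdm6a-203 held 33.8% and 28.4%. Counting only transcripts with a complete coding sequence, a measure chosen after the data were seen, left Kdm6b at 35.2 and 22.4 TPM and Kdm6a at 9.60 and 5.97 TPM. On that scale Kdm6b was 3.67-fold higher in library 1 and 3.76-fold higher in library 2. The measure also drops coding transcripts annotated as incomplete, which held 22.0% and 39.7% of Kdm6a TPM, while Kdm6b has none. With all protein-coding transcripts Kdm6b was 1.80-fold and 1.25-fold higher, so the size of the gap depends on the annotation.

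The Y-linked copy of Kdm6a, Uty, had 0 expected counts in the RSEM tables of both libraries but 218 and 175 estimated counts in the kallisto tables. The same held for the H3K4 demethylase gene Kdm5d, with 0 and 0 against 359 and 457. Over all 1570 Y genes the RSEM tables held 18 and 27 counts, while kallisto assigned 6530 and 5080. Related copies can share reads, so the RSEM level of Kdm6a is uncertain, and whether it holds reads of Uty was not tested.

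The PRC2 catalytic subunit genes were lower. Ezh1 (chromosome 11, 101191115 to 101226463, minus strand) had 13.8 and 13.4 TPM in libraries 1 and 2, from 906 and 900 counts. Ezh2 (chromosome 6, 47530139 to 47595341, minus strand), whose subunit is known to go with dividing cells while EZH1 persists in resting ones, had 7.05 and 3.92 TPM from 162 and 139 counts. Ezh1 lay above Ezh2 in both libraries, 1.96-fold and 3.41-fold.

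With RSEM, Ezh1-203, of 750 codons, took 43.7% and 57.0% of Ezh1 TPM. Ezh1-201, with 579 codons, took 14.5% and 17.3%, and the processed transcript Ezh1-205 11.7% and 11.7%. Ezh1-202, with 747 codons, had 210 RSEM counts in library 1 and 0 in library 2, so the division among these transcripts is uncertain. With kallisto Ezh1-203 held 12.6% and 13.2% of TPM, Ezh1-202 24.7% and 19.5%, and the processed transcript Ezh1-209 was largest at 37.5% and 49.7%. The few Ezh2 counts were spread over 15 annotated transcripts. The coding Ezh2-201, with 746 codons, held 38.7 and 59.9 of them, and the retained-intron transcript Ezh2-207 held 38.0 and 33.6. By complete coding transcripts Ezh2 had 1.30 and 1.32 TPM against 10.5 and 9.94 TPM for Ezh1, a gap of 8.06-fold and 7.53-fold. The long non-coding gene Gm26625 overlaps Ezh2 on the other strand, with counts equal to 10.5% and 18.7% of those of Ezh2. Whether counting used strand is not stated, so reads of the pair may not be divided with certainty.

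Markers of proliferation give the setting for Ezh2. All 8 were detected, summing to 61.5 TPM in library 1 and 57.1 TPM in library 2, with a median of 2.31 TPM at percentile 25.7. By mean Mki67 was the highest, at 31.3 and 24.9 TPM, and Rrm2 the lowest, at 0.480 and 0.430 TPM, although Ccnb1 was below it in library 2 at 0.380 TPM. Their part in the level of Ezh2 was not tested.

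Setdb2, which encodes an H3K9 methyltransferase (chromosome 14, 59402009 to 59440884, minus strand), had 50.1 and 30.1 TPM in libraries 1 and 2, a mean of 40.1 ± 14.2 (SD, n = 2). The coding transcript Setdb2-205, with 697 codons, took 66.9% and 72.5% of its TPM, and Setdb2-202, with 140 codons, 11.7% and 14.2%. Kmt2a (chromosome 9, 44803355 to 44881296, minus strand), the gene of the H3K4 methyltransferase MLL1, had 22.4 and 19.9 TPM, from 7461 and 6017 counts over a very long mRNA. Its 16461-nt transcript Kmt2a-201, with 3963 codons in 36 exons, took 76.2% and 76.4% of the TPM, and no retained-intron transcript is annotated for it.

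The de novo DNA methyltransferase gene Dnmt3a (chromosome 12, 3806007 to 3914443, plus strand) had 70.9 and 55.4 TPM in libraries 1 and 2, which put its mean at percentile 93.6. The maintenance methyltransferase gene Dnmt1 (chromosome 9, 20907209 to 20959888, minus strand), which copies methylation onto newly replicated DNA, had 11.8 and 8.87 TPM, at percentile 62.4. Dnmt3a thus lay 6.01-fold above Dnmt1 in library 1 and 6.25-fold in library 2. The gap was smaller but had the same direction by complete coding transcripts, at 3.53-fold and 4.75-fold.

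Dnmt3a has a long protein form from its upstream start and a shorter form, known from embryonic stem and germ cells, from an internal start. Counts were assigned mostly to the first. Dnmt3a-218 and Dnmt3a-201, both of 908 codons, took 23.5% and 21.6% of TPM in library 1 and 25.7% and 23.9% in library 2. Transcripts that begin at the upstream start, between 3807030 and 3807160, took 84.5% of the gene's counts in library 1 (Wilson 95% interval 83.7% to 85.3%) and 86.4% in library 2 (85.6% to 87.3%). Those that begin at the internal start, between 3891728 and 3891744 and with 689 codons, took 7.37% (6.80% to 8.002%) and 10.1% (9.39% to 10.9%). By TPM, which is scaled by length, the split was less uneven. The upstream start took 45.1% in library 1 and 49.6% in library 2, and the internal start 9.00% and 23.4%.

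The 2 internal transcripts traded places between the libraries. Dnmt3a-205 held 121 counts in library 1 and 595 in library 2, while Dnmt3a-203 held 416 and 56.0. Their starts lie 16 bases apart, and kallisto gave no count to Dnmt3a-203 in either library. By counts the sum for the internal start is therefore firmer than either transcript, and kallisto put it at 8.92% and 11.4%. Its TPM share is not, because Dnmt3a-205 has 2328 nt and Dnmt3a-203 has 5424 nt. The same counts give more TPM on the shorter transcript. The TPM shares of 9.00% and 23.4% thus cannot be read as a difference in use of the start.

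Dnmt1 counts were divided between 2 starts. Dnmt1-201, from the middle start and with 1620 codons, took 63.1% of the counts in library 1 (Wilson 95% interval 60.3% to 65.8%) and 38.5% in library 2 (35.5% to 41.6%). Dnmt1-202, from the far start, with 1501 codons, took 33.8% (31.2% to 36.5%) and 56.0% (52.9% to 59.1%). The transcript of Dnmt1 with more counts was thus a different one in each library. That difference was not tested, since the intervals cover counting error within a library and not the spread between libraries. Both have 39 exons, and a form shortened at its N terminus is known from oocytes. Whether Dnmt1-202 is that form was not tested.

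**Figure D2:**
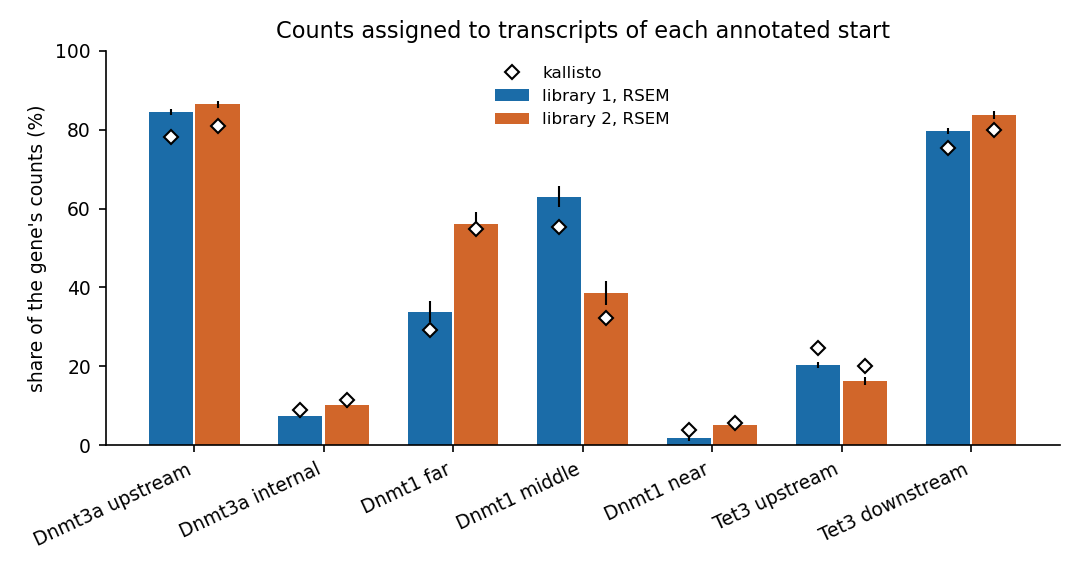
Share of each gene's counts (%, vertical axis) in transcripts of each annotated start, by library; black lines are Wilson 95% intervals and diamonds are kallisto shares. Far, middle and near order the Dnmt1 starts by distance upstream; the far start of Dnmt1 goes from 33.8% to 56.0% while the upstream start of Dnmt3a holds 84.5% and 86.4%.

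Tet2 (chromosome 3, 133463679 to 133545139, minus strand), whose enzyme oxidises 5-methylcytosine and is often mutated in clonal blood disorders, had the highest RSEM level of the 10, 100.3 TPM in library 1 and 64.9 TPM in library 2. With kallisto Dnmt3a was above it in both libraries, at 29.7 and 50.5 TPM against 28.9 and 48.3 TPM. Tet3 (chromosome 6, 83362373 to 83459084, minus strand), which encodes a related dioxygenase, had 50.2 and 27.9 TPM. Tet2 lay 2.00-fold and 2.33-fold above Tet3. The third family gene, Tet1, had 0.110 and 0.350 TPM from 12 and 17 counts.

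The share of Tet2 in its full coding transcript Tet2-201 depended on the unit and on the program. Tet2-201, 9179 nt with 1912 codons, took 69.6% and 66.1% of the gene's counts but 32.7% and 34.3% of its TPM. The single-exon retained-intron transcripts Tet2-208 and Tet2-210 took 20.4% and 11.3% in library 1 and 26.0% and 13.2% in library 2. The 484-nt processed transcript Tet2-202 took 19.3% and 16.5% of TPM from only 1.28% and 0.936% of the counts.

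Tet3 was made up differently. Tet3-202, with 1668 codons, took 52.7% and 65.0% of TPM, and Tet3-203, with 1803 codons from an upstream start, 28.9% and 25.03%. The longer protein form of Tet3 is the one known to carry a CXXC domain, which binds unmethylated CpG. The single-exon retained-intron transcript Tet3-205 took 18.0% and 10.004%. By complete coding transcripts Tet3 had 40.9 and 25.1 TPM and Tet2 32.8 and 23.0 TPM, so the order of the pair turned.

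The genes that overlap Tet3 held few counts beside it. 5430434F05Rik had counts equal to 6.83% and 5.73% of those of Tet3, and B230319C09Rik, on the other strand, 3.88% and 2.42%. For Kdm6b the antisense gene Kdm6bos had 1.31% and 1.14%, for Dnmt3a the antisense gene Dnmt3aos 0.879% and 0.621%, and for Kmt2a the overlapping Gm48314 3.02% and 1.78%. In all, 8 of the 10 genes overlap another annotated gene. The share over all protein-coding genes is not given here, so whether that count is unusual is not known.

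Transcripts annotated as retained introns set the 10 genes apart from one another. Their share of TPM was 20% or more in both libraries for 3 of 10 genes, against 28.1% of detected protein-coding genes. Of the 7 genes that have such a transcript annotated the 3 are to be read against 46.2% of detected genes that have one, so neither count stands out from its background. Kdm6a had 56.4% in library 1 and 39.3% in library 2, Ezh2 had 51.0% and 40.5%, and Tet2 had 44.9% and 48.1%. Dnmt3a followed at 21.9% and 14.0%, Tet3 at 18.0% and 10.004%, Setdb2 at 8.62% and 6.02% and Dnmt1 at 7.97% and 3.84%. Kdm6b, Ezh1 and Kmt2a have no annotated transcript of this class. In 6 of the 7 genes that have one the RSEM share was lower in library 2, and Tet2 was the exception. With kallisto Setdb2 was higher there too, at 15.0% against 11.8%. The median over all detected protein-coding genes was also lower in library 2, at 4.62% against 8.33%. How many of all genes were lower is not given here. In nuclear RNA, an intron kept in the finished transcript and an intron still awaiting removal cannot be told apart by this class.

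With kallisto 4 of 10 genes passed 20%, against 36.2% of detected protein-coding genes: Dnmt1 joined them at 57.6% and 42.7%, nearly all of it in the 693-nt Dnmt1-206 with 55.7% and 42.3%. The RSEM tables gave that transcript 4 and 3 counts. The 2 programs thus disagreed on Dnmt1 by far more than the libraries did. The largest transcript by TPM was annotated protein-coding for 9 of 10 genes with RSEM, against 86.2% of detected protein-coding genes. With kallisto it was so for 5 of 10. The kallisto share over all genes is not given here, so that count cannot be set against a background.

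**Figure D3:**
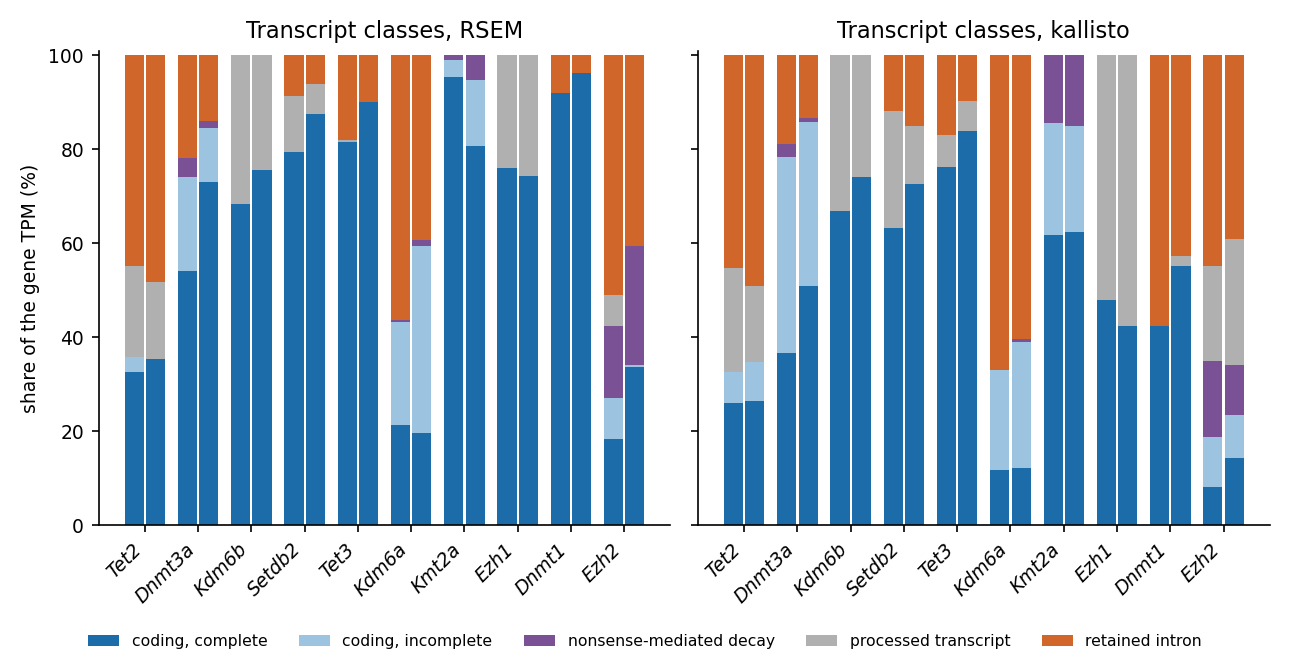
Share of each gene's TPM (%, vertical axis) by annotated transcript class, with RSEM (left) and kallisto (right); the left bar of each pair is library 1 and the right bar library 2. Kdm6a, Ezh2 and Tet2 carry 39.3% to 56.4% retained-intron TPM with RSEM, and Dnmt1 carries 57.6% and 42.7% with kallisto but 7.97% and 3.84% with RSEM.

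Neighbours in the order of levels were not all separated. Kdm6b, Setdb2, Tet3 and Kdm6a, with means between 37.7 and 40.5 TPM, changed order between the libraries and their deposited intervals overlapped in both. Ezh1 and Dnmt1 overlapped in library 1. Tet2 and Dnmt3a, Dnmt3a and Kdm6b, Kdm6a and Kmt2a, Kmt2a and Ezh1, and Dnmt1 and Ezh2 kept their order with intervals apart in both libraries, although kallisto turned the order of Tet2 and Dnmt3a. The level of those intervals is not stated, and Tet3 in library 1 lay above its own upper bound of 49.3 TPM and Ezh2 in library 2 below its own lower bound of 3.95 TPM.

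Between the libraries the 10 genes lay within 1.5-fold once a shared shift was taken out. The log2 ratio of library 2 over library 1 was corrected for the median ratio over detected protein-coding genes, -0.36, and 0 of 10 were then over 1.5-fold apart, against 22.9% of detected protein-coding genes. The ratios ran from -0.49 for Tet3 and Ezh2 to 0.31 for Ezh1. Kdm6b was at -0.44, Setdb2 at -0.38, Tet2 at -0.27, Kdm6a at -0.22, Dnmt1 at -0.05, Dnmt3a at 0.00 and Kmt2a at 0.19. Of the 10, 7 were below 0, as were 50% of detected protein-coding genes by construction, and their median was -0.24. Without centring 5 of 10 were over 1.5-fold apart with RSEM, all lower in library 2, against 35% of genes. The shared shift had the other sign with kallisto, whose median log2 ratio was 0.87. Uncentred kallisto TPM was higher in library 2 for each of the 10 genes, for instance 28.9 and 48.3 for Tet2. The direction of an uncentred difference thus depended on the program, and why was not tested. Mitochondrial counts, given above, and RNA input also differ between these libraries, and their part was not tested. With 1 library on each side there is no test.

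**Figure D4:**
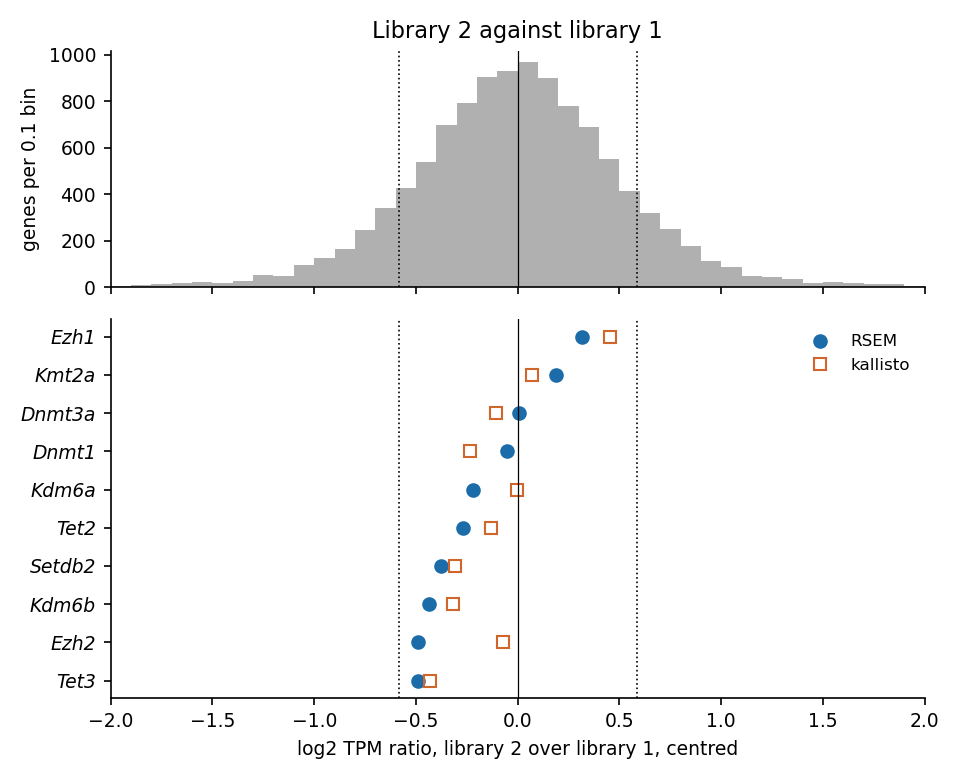
Centred log2 TPM ratio of library 2 over library 1 (horizontal axis): above, the number of detected protein-coding genes per bin; below, the 10 genes with RSEM (points) and kallisto (squares). Dotted lines mark 1.5-fold, and all 10 genes lie between them, from -0.49 to 0.31 with RSEM.

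The wider machinery of histone and DNA methylation was read from 7 lists of 87 genes, the 10 among them. Of the 87, 82 were detected, with a median of 12.6 TPM at percentile 67.3, and 9 of the 82 (11%) were over 1.5-fold apart between the libraries, 4 higher and 5 lower in library 2, beside the 22.9% of detected protein-coding genes given above. The highest and lowest gene of a list are named by mean RSEM TPM. With kallisto Kdm6a, Aebp2, Kmt2d, Kdm5a, Setdb2 and Dnmt3a had more TPM in both libraries than the gene that led their list with RSEM. Phf2 had less than Kdm4b.

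Of 15 genes of PRC2 and H3K27, 13 were detected, and the median over all 15 was 11.4 TPM. Kdm6b was the highest of them by mean, though below Kdm6a in library 2, and Phf19, a PRC2 accessory subunit gene, was the lowest at 0.820 and 1.27 TPM. Epop, another PRC2 partner, was not detected, with 12 and 6 counts, and neither was Uty. All 19 genes of H3K4 methyltransferases and their COMPASS complexes were detected, with a median of 10.5 TPM, from the enhancer methyltransferase gene Kmt2c at 44.1 and 34.8 TPM down to the core subunit gene Dpy30 at 1.63 and 2.58 TPM. Kmt2d, the paralog of Kmt2c, was above it in library 1 at 46.0 TPM and below it in library 2 at 32.3 TPM. Kmt2a lay in the upper part of that list, below Kmt2c.

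The H3K4 demethylase genes had 5 of 6 detected, led by Kdm5c at 29.3 and 20.4 TPM, with Kdm5b lowest at 2.65 and 1.95 TPM and Kdm5d not detected. Kdm5d is the Y-linked copy of Kdm5c, so the RSEM level of Kdm5c is uncertain in the same way as that of Kdm6a. All 7 H3K9 methyltransferase genes were detected, with Ehmt2, the gene of G9a, at 60.2 and 30.9 TPM, Setdb2 next below it and Suv39h1 lowest at 3.67 and 2.32 TPM. H3K9 demethylase genes had 9 of 10 detected. Jmjd1c led them at 101.5 and 66.3 TPM, close to Tet2, Kdm4b was lowest at 5.89 and 2.86 TPM and Kdm4d was not detected, with 5 and 1 counts.

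Enzymes of H3K36, H3K79 and H4K20 had all 13 genes detected and the highest list median, 19.4 TPM, from the H3K36 methyltransferase gene Nsd3 at 80.5 and 57.0 TPM to Kdm8 at 0.580 and 0.590 TPM. Of the 17 genes of DNA methylation and demethylation 16 were detected, with Tet2 and Dnmt3a at the top and Tet1 lowest. Dnmt3l, which encodes a cofactor of de novo methylation, was not detected, with 3 and 2 counts. The spread of this list, from 0.230 to 82.6 TPM by mean, was the widest of the 7.

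**Figure D5:**
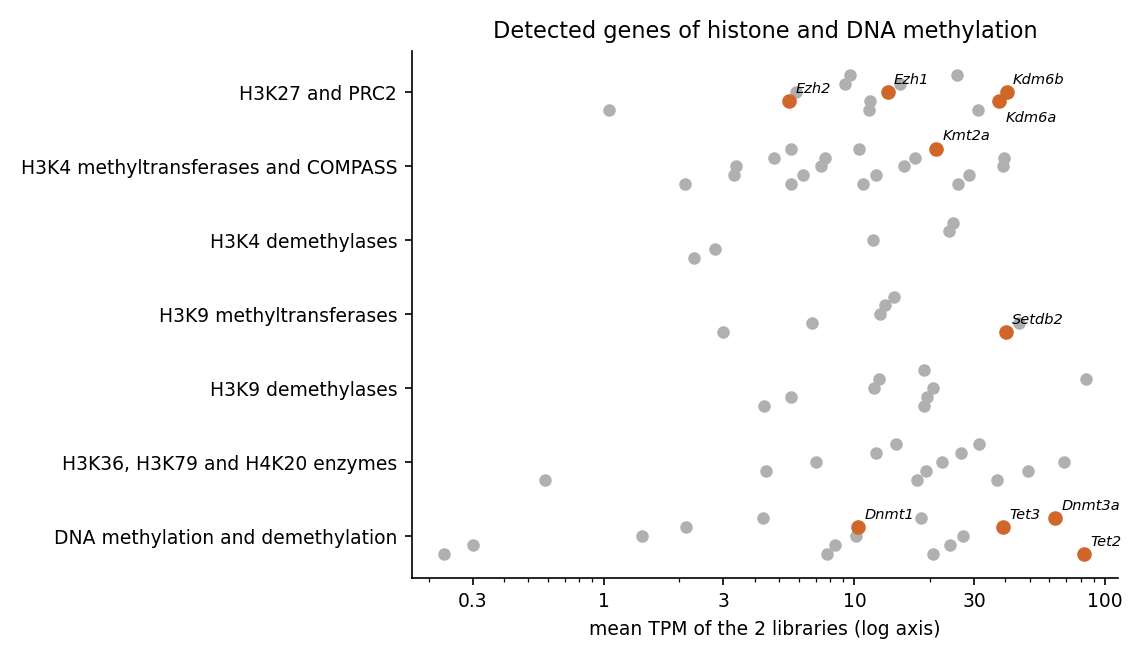
Mean TPM of the 2 libraries (horizontal log axis) of each detected gene in 7 lists of histone and DNA methylation; the 10 genes are orange and labelled, the others grey, and vertical offsets within a list only separate points. Tet2 and Dnmt3a stand at the top of the DNA list at 82.6 and 63.1 TPM, and Ezh2 near the bottom of the PRC2 list at 5.49 TPM.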

How the data were processed

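Gene and transcript tables laid out as RSEM writes them, and transcript tables laid out as kallisto writes them, were deposited for each library. Notes deposited with them name mm10 and GENCODE M21. For the aligner and program versions: not given in the sources used here. Expected and estimated counts were used as the authors deposited them. TPM are the authors' deposited values, scaled over all features, including short RNAs. The authors also deposited bounds around each TPM, a score of its precision whose level is not stated.

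Features without a gene name took 0.653% and 0.222% of counts and were left out. A count of 0 allows up to 3 counts, or 0.152 and 0.174 CPM. Shares of TPM and counts per transcript, annotated classes, centred log2 TPM ratios without a pseudocount and percentiles of mean TPM among 10991 detected protein-coding genes were computed with Python 3.11.15, numpy 2.4.6 and pandas 2.3.3, and drawn with matplotlib 3.10.9. Starts within 200 bases were grouped. With 1 group of 2 libraries no test was run.

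The 10 genes, the wider lists and the markers were chosen with earlier results of these data known. Named from each list were the highest and lowest detected gene and each undetected gene. Named of each gene were its largest transcript and others at 10% of TPM in both libraries. Dnmt3a-203, Dnmt3a-205 and Dnmt1-206 fall outside that rule and were named after their values were seen, as were Mki67, Rrm2, Ccnb1, Cd4, Kmt2d, Kdm5a and Phf2. Alternatives were kallisto values, expected counts, other minimums, a pseudocount of 1, no centring, coding transcripts only, TPM rescaled over protein-coding genes outside the mitochondrial genome, and each library alone.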

Additional observations from a re-analysis of the deposited data

How the results depend on the processing

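All 10 genes were detected at minimums of 1, 10 and 50 counts, with kallisto and in each library alone. The wider lists had 77 of 87 detected at a minimum of 50 and 84 with kallisto. Members over 1.5-fold apart were 0 with kallisto, with a pseudocount, by depth-scaled counts and at a minimum of 50, but 5 without centring of the RSEM values. The shares of detected protein-coding genes beside these were 17.7%, 12.7%, 18.6%, 18% and 35%, in that order. With so few genes, 0 of 10 is not far from the lowest of these shares. The median percentile of the 10, 88.7 ± 2.19 (SD, n = 2), was 85.9 with kallisto, 92.0 by expected counts and 86.0 at a minimum of 50, and 86.9 to 90.02 in single libraries. Kallisto put 5 in place of 9 genes with a protein-coding largest transcript, with no kallisto share over all genes beside it. The log2 ratio of Kdm6b over Kdm6a, 0.08 as the mean, was -0.19 with kallisto, 0.58 by protein-coding and 1.89 by complete coding transcripts, and -0.031 to 0.19 in single libraries. Ezh2 over Ezh1, at -1.37, was -2.67 by protein-coding and -2.96 by complete coding transcripts. Dnmt1 over Dnmt3a, at -2.62, was -2.29 with kallisto, -2.37 by protein-coding transcripts, -2.50 with the pseudocount and -2.03 by complete coding transcripts. Tet3 over Tet2, at -1.11, was -1.35 with kallisto but 0.16 by protein-coding and 0.22 by complete coding transcripts. The complete coding measure was chosen after seeing the data. Restricting the sum to coding transcripts removes the retained-intron and processed transcripts by construction. The complete coding measure also removes coding transcripts annotated as incomplete. The cause of the shifts with kallisto was not tested. Of 30 mean levels under other settings on both libraries 25 moved by more than 1 SD, 10 of them by the rescaling over protein-coding genes, which multiplies every gene of a library alike. Of 7 retained-intron shares 3 moved with kallisto. A single library of 2 is never over 1 SD from their mean, so single libraries were left out of these counts. No paired analysis was possible because there is only 1 group. Depth limits Ezh2, at 162 and 139 counts, more than any of the other 9.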
